A study of Mus musculus with 7 samples.

Results

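The receptors with which macrophages bind modified lipoproteins, microbes, haemoglobin complexes and dying cells were examined in kidney RNA of lupus-prone mice as a set of 10 genes: Marco, Msr1, Cd163, Mrc1, Siglec1, Cd36, Clec7a, Timd4, Mertk and Axl. These 10 genes, of 53465 in the deposited count table, were selected on their function and with the difference between AZD1152 and vehicle kidneys already known, so their values for that difference are given as a description. The libraries came from renal tissue of 4 MRL/lpr mice given AZD1152 (barasertib, a prodrug of an inhibitor of Aurora kinase B) and 3 MRL/lpr mice given vehicle. All 7 mice carried the lpr defect of Fas, a death receptor, and MRL/lpr mice develop a spontaneous lupus-like nephritis. Dose, schedule, age and sex are not given in the sources used here, and by these numbers each mouse gave 1 library, made from oligo(dT)-enriched mRNA.

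Scavenger receptors are surface proteins that take up modified lipids, microbes and cell debris, and efferocytosis is the engulfment of apoptotic cells. Apoptotic cells display phosphatidylserine, which Timd4 (TIM-4) binds directly and which Mertk and Axl, receptor tyrosine kinases of the TAM family, bind through the bridging proteins Gas6 and protein S. Mertk-deficient mice clear apoptotic cells poorly and develop autoantibodies. Several of these genes are not restricted to macrophages: Cd36 is also made by endothelium, fat and epithelium, Mrc1 by some endothelium, and Axl and Mertk by stromal, endothelial and epithelial cells.

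Library totals ran from 14692113 to 17036862 counts in the AZD1152 group and from 16195173 to 16930859 in the vehicle group, and 3 counts corresponded to 0.166 to 0.212 CPM (counts scaled to a common library total with TMM factors). Proximal tubule markers of the labelled tissue were high, with sums of 9933 to 11700 CPM in AZD1152 kidneys and 6902 to 8670 CPM in vehicle kidneys. Over all 15774 genes tested with edgeR's quasi-likelihood method, 759 (4.81%) were called lower and 476 (3.02%) higher with AZD1152, the threshold being an adjusted p of 0.05 (Benjamini-Hochberg). With library totals as the only scaling, the median of all log2 fold changes was -0.15, and there 13.5% of the calls were higher in place of 38.5%.

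The receptors did not share a single pattern. Siglec1, Msr1, Mrc1, Axl and Marco were lower in AZD1152 kidneys and passed the threshold over all genes, Cd163, Cd36, Clec7a and Mertk did not pass it, and Timd4 was too low to be tested. Thus 5 of the 9 tested receptors were called lower and 0 higher, beside 4.81% and 3.02% of all genes, and since the genes were chosen with this contrast known nothing is read from that count. The median log2 fold change of the 9 was -0.90, from -4.10 for Marco to -0.02 for Mertk. In 7 of the 10 receptors (6 of the 9 tested) all AZD1152 libraries lay below all vehicle libraries, which held for 11.6% of all tested genes, and in Cd163, Cd36 and Mertk the groups overlapped.

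**Figure D1:**
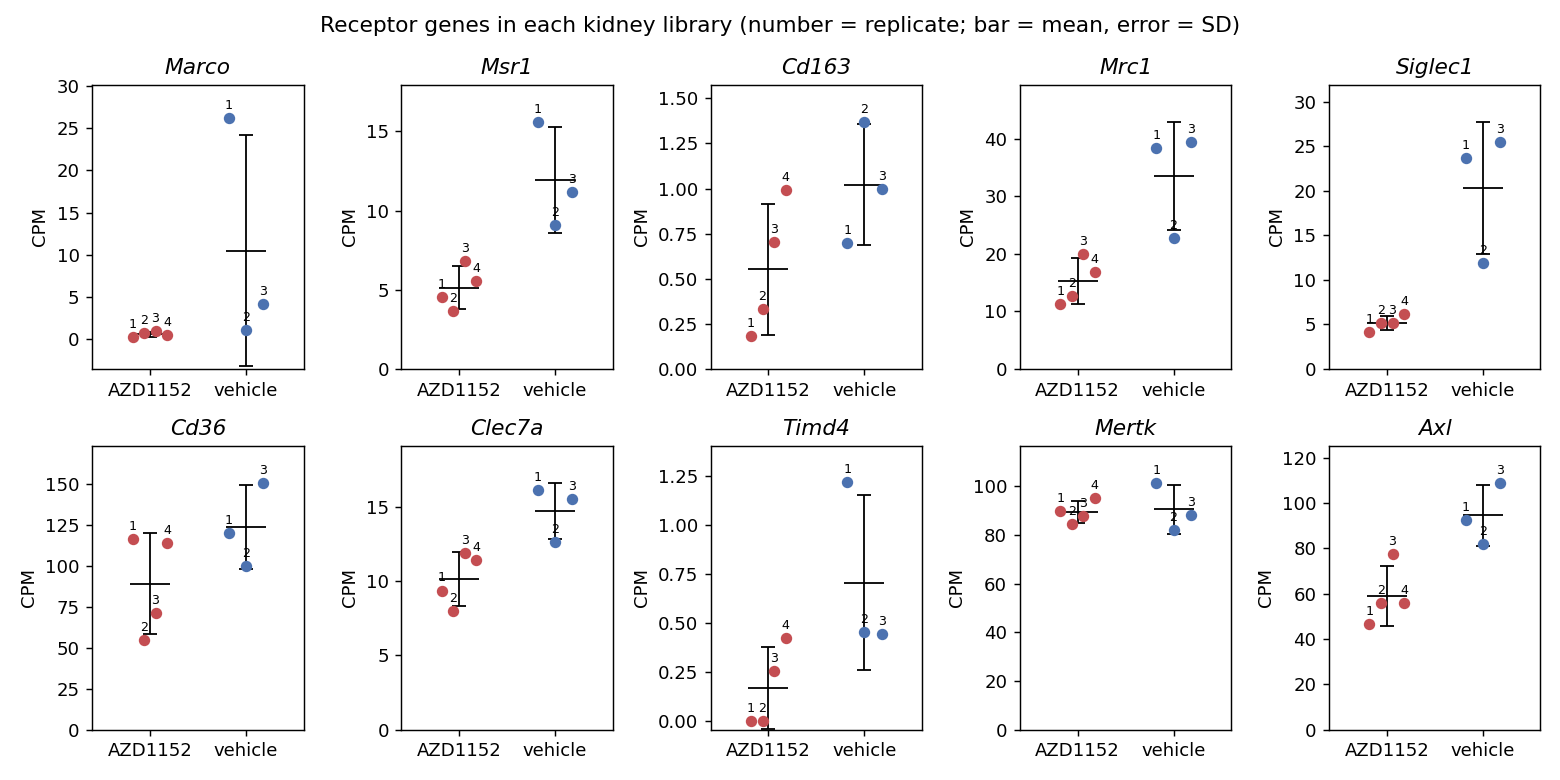
TMM-scaled CPM (y axes, linear) of the 10 receptor genes in each AZD1152 library (red, left) and each vehicle library (blue, right); numbers are replicates, horizontal bars means and whiskers SD. Marco in vehicle replicate 1 stands at 26.2 CPM, and Mertk lies between 81.9 and 101.5 CPM in all 7 libraries.

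Among the class A scavenger receptors, which bind modified lipoproteins and bacteria through collagen-containing trimers, Marco differed most and least evenly. Marco (ENSMUSG00000026390; GRCm38 chromosome 1, 120474538 to 120505024, minus strand) had 0.242, 0.730, 0.957 and 0.495 CPM in AZD1152 replicates 1 to 4, against 26.2, 1.08 and 4.21 CPM in vehicle replicates 1 to 3. The AZD1152 libraries were all below the vehicle libraries, but AZD1152 replicate 3 lay close to vehicle replicate 2, and the vehicle libraries spanned a 24.2-fold range. These values rest on 4, 11, 15 and 7 counts in the AZD1152 group and on 450, 19 and 76 counts in the vehicle group. This gave a log2 fold change of -4.10 ± 0.98 (SE), and it was -2.12 ± 0.61 without vehicle replicate 1. The call was kept without vehicle replicate 2 and lost without any other single library.

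Msr1 (ENSMUSG00000025044; chromosome 8, 39581685 to 39642673, minus strand), the macrophage scavenger receptor SR-A, had 4.53, 3.65, 6.83 and 5.52 CPM in AZD1152 kidneys and 15.6, 9.07 and 11.1 CPM in vehicle kidneys. The highest AZD1152 library was below the lowest vehicle library. The means were 5.13 ± 1.36 CPM (SD, n = 4) with AZD1152 and 11.9 ± 3.33 CPM (SD, n = 3) with vehicle, a log2 fold change of -1.22 ± 0.25 (SE). The call was lost without AZD1152 replicate 4 (-1.26) and without vehicle replicate 1 (-0.98) or 3 (-1.26).

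Siglec1 (CD169; ENSMUSG00000027322; chromosome 2, 131069220 to 131086765, minus strand), a sialic acid-binding lectin of macrophages that is known as an interferon-induced gene, was the receptor whose call did not depend on any setting tried. It had 4.17, 5.11, 5.10 and 6.16 CPM in AZD1152 kidneys, against 23.7, 11.9 and 25.4 CPM in vehicle kidneys. The AZD1152 libraries lay within 1.48-fold of each other and all below the lowest vehicle library, replicate 2. Its log2 fold change was -1.99 ± 0.26 (SE), from -2.26 to -1.79 in the 14 other settings, and the call was kept in all 14. The interferon response list fixed for this work (8 genes, 3 of them called lower) summed to 97.9 to 172.4 CPM in AZD1152 kidneys and 210.7 to 257.0 CPM in vehicle kidneys. The genes called were Oasl2, Irf7 and Isg15, and Ifit1, Ifit3 and Rsad2 overlapped between the groups. AZD1152 replicate 1 had the highest interferon sum of its group (172.4 CPM) and the lowest Siglec1 (4.17 CPM). Vehicle replicate 2 was the lowest of its group in both. The part of the interferon response in the Siglec1 values was not tested.

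Mrc1 (CD206; ENSMUSG00000026712; chromosome 2, 14229392 to 14332057, plus strand), the mannose receptor and a common marker of alternatively activated macrophages, had 11.2, 12.7, 19.97 and 16.9 CPM with AZD1152 and 38.5, 22.8 and 39.4 CPM with vehicle. AZD1152 replicate 3 came close to vehicle replicate 2, and the groups did not overlap. Its log2 fold change was -1.14 ± 0.24 (SE). The call was lost without AZD1152 replicate 2 (-1.08) or 4 (-1.21) and without vehicle replicate 1 (-1.03) or 3 (-1.01).

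Cd163 (ENSMUSG00000008845; chromosome 6, 124304656 to 124330527, plus strand), the haptoglobin-haemoglobin receptor, was near the limit of detection. It had 3, 5, 11 and 14 counts in AZD1152 libraries, or 0.181 to 0.991 CPM, and 12, 24 and 18 counts in vehicle libraries, or 0.698 to 1.37 CPM. The groups overlapped, and the log2 fold change of -0.90 ± 0.51 (SE) was not called.

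Cd36 (ENSMUSG00000002944; chromosome 5, 17781690 to 17888801, minus strand), a class B scavenger receptor for oxidised lipoproteins and long-chain fatty acids, had 116.4, 54.7, 71.6 and 114.2 CPM with AZD1152 and 120.4, 99.97 and 151.0 CPM with vehicle. The AZD1152 libraries were spread, with replicates 1 and 4 inside the vehicle range and replicates 2 and 3 below it. A log2 fold change of -0.47 ± 0.26 (SE) was not called. Fat markers were at most 0.242 CPM in sum in AZD1152 libraries and 0.111 CPM in vehicle libraries, and Adipoq and Lep had 0 counts in every library, where the limit set by 3 counts is at most 0.212 CPM. Endothelial markers summed to 561.4 to 631.9 CPM with AZD1152 and 508.0 to 671.4 CPM with vehicle, and 0 of 8 were called.

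Clec7a (Dectin-1; ENSMUSG00000079293; chromosome 6, 129461591 to 129472779, minus strand), a C-type lectin receptor for fungal beta-glucan, had 9.37, 7.96, 11.9 and 11.4 CPM with AZD1152 and 16.1, 12.6 and 15.5 CPM with vehicle. The groups did not overlap, but AZD1152 replicate 3 and vehicle replicate 2 differed by less than the SD of either group. Its log2 fold change of -0.54 ± 0.16 (SE) was not called with TMM scaling in edgeR and was called with total-count scaling (-0.69) and in DESeq2 (-0.54). GENCODE mouse release 21 lists Clec7a as a polymorphic pseudogene and the other 9 receptors as protein coding.

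The phosphatidylserine receptor and the TAM kinases differed among themselves. Timd4 (ENSMUSG00000055546; chromosome 11, 46810800 to 46844332, plus strand), a marker of long-lived resident macrophages in several tissues, had 0, 0, 4 and 6 counts in AZD1152 libraries and 21, 8 and 8 counts in vehicle libraries. The means were 0.170 ± 0.208 CPM (SD, n = 4) with AZD1152 and 0.707 ± 0.446 CPM (SD, n = 3) with vehicle, and 0 counts allow up to 0.199 CPM in AZD1152 replicate 2. The gene failed the filter on low counts. Without that filter its log2 fold change was -2.05 ± 0.80 (SE) and was not called.

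Axl (ENSMUSG00000002602; chromosome 7, 25757273 to 25788705, minus strand) had 46.6, 55.7, 77.4 and 56.0 CPM with AZD1152 and 92.4, 82.1 and 108.9 CPM with vehicle. AZD1152 replicate 3 was just under vehicle replicate 2, and the others lay well below the vehicle libraries. This gave a log2 fold change of -0.68 ± 0.16 (SE). The call was kept without AZD1152 replicate 3 (-0.85) or vehicle replicate 2 (-0.77) and lost without any other single library, with values from -0.70 to -0.57.

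Mertk (ENSMUSG00000014361; chromosome 2, 128698956 to 128802894, plus strand), the other TAM kinase of the set, had 90.0, 84.6, 87.8 and 95.3 CPM with AZD1152 and 101.5, 81.9 and 88.1 CPM with vehicle. The vehicle range held 4 of 4 AZD1152 libraries, and the means were 89.4 CPM with AZD1152 and 90.5 CPM with vehicle. The log2 fold change was -0.02 ± 0.09 (SE) and was not called. Its sign turned without vehicle replicate 1 (0.07). Proximal tubule markers, for an epithelium that could also hold Mertk RNA, had higher sums with AZD1152 (above), with 2 of 6 called higher. Neither was called without AZD1152 replicate 4, vehicle replicate 1 or vehicle replicate 3, and 1 was without AZD1152 replicate 2 or 3. The part of this epithelium in the Mertk values was not tested.

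**Figure D2:**
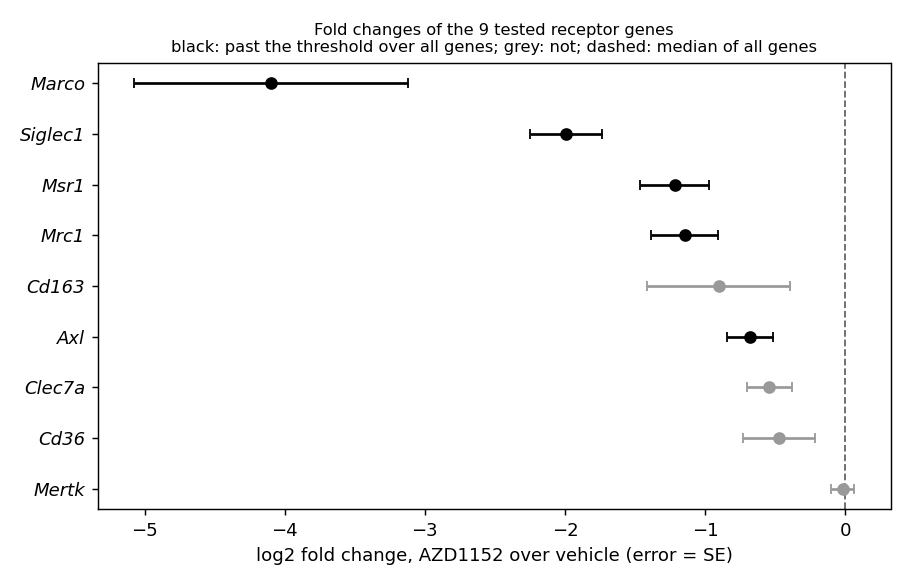
Log2 fold change of AZD1152 over vehicle (x axis; points, with whiskers of 1 SE) for the 9 tested receptor genes; black points passed the threshold over all 15774 genes, grey points did not, and the dashed line is the median of all genes. Marco lies at -4.10 with the widest error, Siglec1 at -1.99, and Mertk at -0.02.

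The places of the single libraries were alike across receptors only in part. Among vehicle kidneys, replicate 2 was the lowest in 8 of the 10 receptors, with Cd163 and Timd4 as the exceptions. The highest vehicle library was replicate 1 in 5 receptors, replicate 3 in 4 and replicate 2 in 1. In the AZD1152 group, replicate 1 was the lowest in 5 receptors and replicate 2 in 4, and replicate 3 or 4 was the highest in 9, Cd36 being the exception. The macrophage markers had a like order in the AZD1152 group, with summed levels of 627.0, 629.1, 909.5 and 956.8 CPM in replicates 1 to 4, against 1821, 1369 and 1510 CPM in vehicle replicates 1 to 3.

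Levels between genes were compared as CPM per kilobase of merged exons. In AZD1152 kidneys the order was Cd36 (24.9 ± 8.61 CPM per kb, SD), Mertk (20.6 ± 1.04), Axl (11.7 ± 2.60), Clec7a (3.85 ± 0.69), Mrc1 (2.39 ± 0.63), Msr1 (0.809 ± 0.215), Siglec1 (0.719 ± 0.114), Marco (0.315 ± 0.160), Cd163 (0.101 ± 0.067) and Timd4 (0.0782 ± 0.0958). In vehicle kidneys it was Cd36 (34.5 ± 7.15), Mertk (20.9 ± 2.31), Axl (18.8 ± 2.69), Clec7a (5.59 ± 0.71), Marco (5.45 ± 7.10), Mrc1 (5.27 ± 1.47), Siglec1 (2.85 ± 1.04), Msr1 (1.88 ± 0.53), Timd4 (0.325 ± 0.205) and Cd163 (0.187 ± 0.062). Mertk and Axl had overlapping libraries in vehicle kidneys, while in AZD1152 kidneys every Mertk library was above every Axl library. Neighbours whose libraries overlapped were Cd36 and Mertk, Clec7a and Mrc1, Msr1 and Siglec1, Marco and Cd163, and Cd163 and Timd4 in AZD1152 kidneys. In vehicle kidneys they were Mertk and Axl, Clec7a and Marco, Marco and Mrc1, Siglec1 and Msr1, and Timd4 and Cd163.

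**Figure D3:**
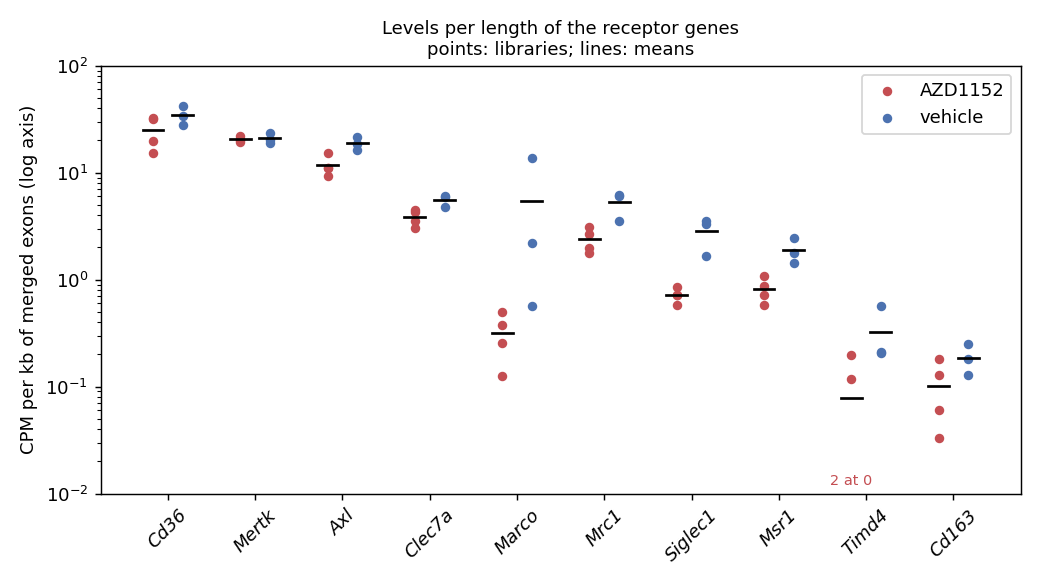
CPM per kilobase of merged exons (y axis, log scale) of the receptor genes in AZD1152 libraries (red, left of each pair) and vehicle libraries (blue), ordered by the vehicle mean; black lines are means, and libraries at 0 are counted at the foot. Cd36, Mertk and Axl lie above 9 CPM per kb in every library and Cd163 and Timd4 below 1.

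Macrophage markers were lower in the treated kidneys as well. Of 17 markers, none of them a receptor of the set and none at 0, 10 fell and 0 rose in AZD1152 kidneys (edgeR, threshold as above), and the median log2 fold change of the 17 was -0.97. The count of 10 was 4 without vehicle replicate 1 and 3 without vehicle replicate 3, and it was 16 with total-count scaling, with no filter and in DESeq2. In bulk tissue, fewer macrophages and less RNA per macrophage cannot be told apart. Each receptor was therefore also expressed as its log2 CPM minus the mean log2 CPM of the 17 markers, a ratio that library scaling changes little and that was not tested, since it comes from the same contrast. The marker score itself was 4.61 ± 0.39 in AZD1152 kidneys and 5.65 ± 0.16 in vehicle kidneys (SD, n = 4 and 3).

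On this relative scale Msr1, Mrc1 and Cd163 overlapped between the groups, with differences of -0.17, -0.10 and 0.14. Mrc1 was at -0.71 ± 0.09 with AZD1152 and -0.62 ± 0.31 with vehicle, Msr1 at -2.26 ± 0.23 and -2.09 ± 0.24, and Cd163 at -5.36 ± 0.48 and -5.50 ± 0.59 (SD). Siglec1 was lower relative to the markers (difference -0.86), at -2.23 ± 0.26 with AZD1152 and -1.37 ± 0.47 with vehicle, without overlap. Mertk and Clec7a were higher relative to the markers, also without overlap. Mertk was at 1.87 ± 0.37 with AZD1152 and 0.85 ± 0.05 with vehicle, and Clec7a at -1.27 ± 0.22 and -1.76 ± 0.05. In log2 CPM alone the groups differed by -0.01 in Mertk and -0.54 in Clec7a, while the marker score differed by -1.03. A gene of any cell type with the same level in both groups therefore also comes out higher on this scale. Axl (1.24 ± 0.25 and 0.91 ± 0.19), Cd36 (1.80 ± 0.66 and 1.28 ± 0.25), Timd4 (-6.70 ± 0.75 and -6.04 ± 0.59) and Marco (-5.18 ± 0.53 and -3.28 ± 2.08) overlapped.

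**Figure D4:**
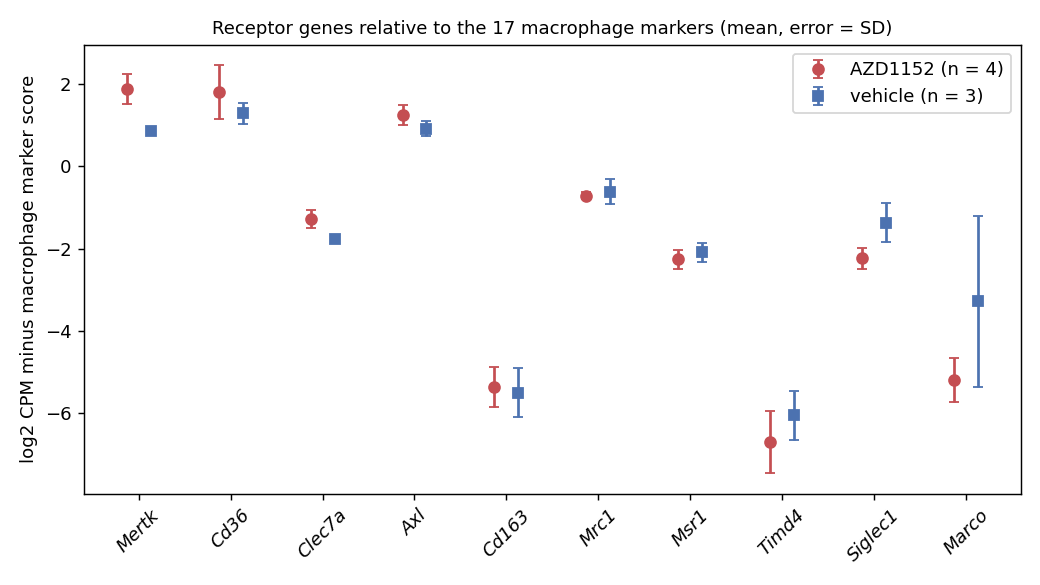
Log2 CPM of each receptor minus the mean log2 CPM of 17 macrophage markers (y axis) in AZD1152 (red circles, left) and vehicle kidneys (blue squares, right); points are means and whiskers SD (n = 4 and 3). Mertk and Clec7a lie higher with AZD1152 on this scale, Siglec1 lower, and Mrc1 and Msr1 at similar values.

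Markers of other cell types in the kidney were also compared. T cell markers summed to 45.2 to 61.7 CPM in AZD1152 kidneys and 84.6 to 129.0 CPM in vehicle kidneys, with 6 of 7 called lower and a median log2 fold change of -1.36. Without vehicle replicate 3 that count was 1, without AZD1152 replicate 4 or vehicle replicate 2 it was 3, and without vehicle replicate 1 it was 4. Dendritic cell markers summed to 28.9 to 43.5 CPM with AZD1152 and 47.2 to 59.5 CPM with vehicle, with 0 of 5 tested called, and neutrophil markers to 10.8 to 28.8 CPM and 26.2 to 31.6 CPM, with 0 of 5. B cell markers summed to 1.91 to 11.7 CPM with AZD1152 and 4.54 to 15.6 CPM with vehicle. Fibroblast and mesangial markers, relevant to Axl, summed to 127.0 to 199.5 CPM with AZD1152 and 205.6 to 306.4 CPM with vehicle, and 1 of 6, the collagen gene Col1a1, was called lower, a call lost without AZD1152 replicate 4 or vehicle replicate 3. Lymphatic endothelial markers (26.9 to 35.8 CPM with AZD1152 and 29.9 to 43.0 CPM with vehicle) and podocyte markers (496.6 to 728.4 CPM and 547.4 to 580.8 CPM) overlapped, with 0 called. Their part in the receptor values was not tested.

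Promoter sequences from RefSeq (GRCm38.p6) were at hand for 8 of the receptors, the exceptions being Msr1 and Siglec1. They were searched on both strands, over 250 bases before to 50 after each gene start, for the core motif GAGGAA of PU.1, the macrophage lineage factor encoded by Spi1, for the MAF recognition core TGCTGAC, and for GAAANNGAAA, as in an interferon-stimulated response element. The PU.1 core was in the windows of 4 of the 8 genes, Marco, Mrc1, Clec7a and Axl. By windows it was in 5 of the 9 of these 8 genes, and in 28.3% of all 32851 promoter windows. The 2 listed windows of Clec7a overlap and hold the same match, which is counted in each. Cd163, Cd36, Mertk and Timd4 had no PU.1 core. Msr1 and Siglec1, both called lower, could not be searched, and any link between the motif and the receptor values was not tested. The MAF core was in the window of Timd4 alone (4.67% of all windows), and the spaced GAAA pair in 0 of the 8 (3.44% of all windows). No match overlapped another motif, and a match is a description of the letters and not of binding. The starts are those of RefSeq and can differ from the GENCODE gene ends given above, as in Mrc1, Axl and Mertk. The lines that follow give the 250 bases before the RefSeq start, 5' to 3' on the gene's strand. They are those of the 4 receptors with a PU.1 core and of Mertk, an example without it that was picked with its values known. Capitals mark the core on either strand.
Marco (chr1:120505025-120505274, minus strand): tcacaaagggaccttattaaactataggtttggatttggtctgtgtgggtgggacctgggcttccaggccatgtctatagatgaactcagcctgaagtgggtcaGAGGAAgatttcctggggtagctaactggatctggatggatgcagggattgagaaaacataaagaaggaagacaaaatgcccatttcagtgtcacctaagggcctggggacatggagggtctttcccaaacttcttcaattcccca
Mrc1 (chr2:14229164-14229413, plus strand): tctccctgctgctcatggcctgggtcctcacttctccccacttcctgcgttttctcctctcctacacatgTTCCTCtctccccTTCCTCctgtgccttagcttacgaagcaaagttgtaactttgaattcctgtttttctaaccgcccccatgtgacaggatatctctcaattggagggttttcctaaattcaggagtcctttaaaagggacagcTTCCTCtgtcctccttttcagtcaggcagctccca
Axl (chr7:25788734-25788983, minus strand): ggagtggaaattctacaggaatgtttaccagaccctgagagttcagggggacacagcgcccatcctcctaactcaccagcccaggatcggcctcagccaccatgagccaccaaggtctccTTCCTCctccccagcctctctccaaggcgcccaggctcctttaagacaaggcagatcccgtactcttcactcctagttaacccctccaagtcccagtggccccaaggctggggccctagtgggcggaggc
Clec7a (chr6:129472780-129473029, minus strand): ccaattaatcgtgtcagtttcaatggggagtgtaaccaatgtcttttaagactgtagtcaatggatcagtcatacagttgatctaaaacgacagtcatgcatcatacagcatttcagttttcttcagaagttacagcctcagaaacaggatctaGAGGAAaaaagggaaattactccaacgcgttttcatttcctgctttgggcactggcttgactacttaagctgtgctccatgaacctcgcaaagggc
Mertk (chr2:128698665-128698914, plus strand): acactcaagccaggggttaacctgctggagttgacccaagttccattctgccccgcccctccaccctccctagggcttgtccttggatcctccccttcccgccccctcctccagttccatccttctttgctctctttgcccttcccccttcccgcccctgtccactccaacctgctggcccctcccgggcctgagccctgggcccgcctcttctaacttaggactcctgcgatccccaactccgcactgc
The core lies 146 bases before the RefSeq start in Marco, 130 in Axl, 96 in Clec7a (in the first of its 2 listed windows), and at 180, 167 and 35 bases in Mrc1.

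Among 12142 protein-coding genes (mean CPM of 2 or more), the 2 whose log2 CPM ran most like each tested receptor over the 7 libraries were named by Pearson's r, as a description in which the 2 groups and library composition are shared. Each r is the highest of a search of 12142 genes over only 7 libraries, so a high value by itself says little. The r of deviations was taken on these same picked genes, and no shared regulation is read from either. Siglec1 ran most like Itgb3, an integrin chain (r = 0.99, and 0.95 for deviations from the group means), and Ifi44, an interferon-induced gene (0.98 and 0.86). Mrc1 ran like Cd300lf, a myeloid receptor (0.99 and 0.98), and Tgfb1 (0.99 and 0.99), and Clec7a like Atp8b4 (0.99 and 0.99) and Pirb, an inhibitory myeloid receptor (0.99 and 0.98). Marco ran like Hp, which encodes haptoglobin (0.99 and 0.99), and Fstl1 (0.98 and 0.96). Msr1 ran like Hal and Rel, an NF-kB subunit (0.99 each, with 0.98 and 0.97 for deviations), and Axl like the chemokine gene Cxcl14 and Spp1, which encodes osteopontin (0.99 each, with 0.97 each). Cd36 ran like Irx1 and Ppic (0.99 each), Mertk like Slc51b (0.97) and Smim1 (0.96), and Cd163, at its low counts, like Klhl20 (0.99) and Rexo4 (0.98).

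The pathways around the receptors were followed with 10 lists of 119 genes in all. Of 109 tested, 18 were called lower and 3 higher (16.5% and 2.75%, beside 4.81% and 3.02% of all genes), and their median was -0.28 on the log2 scale. Of the 18 lower calls 7 were efferocytosis ligands or partner receptors and 3 were C-type lectins, and 1 was among the 19 genes of the engulfment machinery. Without vehicle replicate 1 the calls were 0 lower and 1 higher, and without vehicle replicate 3 they were 0 and 0. Every lower call in these lists that is named below was thus lost without vehicle replicate 1, and again without vehicle replicate 3. Lower calls over all genes fell as well, to 272 of 16061 without vehicle replicate 1 and 163 of 15975 without vehicle replicate 3. Leaving out AZD1152 replicate 4 gave 5 and 1, replicate 2 gave 8 and 1, and replicate 1 gave 10 and 1. Lower calls over all genes were 336, 521 and 582 in these 3 settings, in place of 759. Without AZD1152 replicate 3 the calls were 16 lower and 1 higher, and without vehicle replicate 2 they were 13 and 0. With total-count scaling 32 were called lower and 1 higher, beside 1482 lower and 232 higher of all 15774 genes.

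Of 20 tested ligands and partner receptors of efferocytosis 7 fell and 0 rose, with a median of -0.46. C1qa and C1qc, chains of C1q, which opsonises apoptotic cells, averaged 85.4 ± 23.0 and 53.0 ± 16.4 CPM with AZD1152 (SD, n = 4), against 163.2 ± 5.59 and 103.7 ± 8.27 CPM with vehicle (SD, n = 3), with log2 fold changes of -0.94 ± 0.18 and -0.97 ± 0.21 (SE; edgeR adjusted p = 0.0219 and 0.0287). Itgb3, a chain of the integrin that binds the bridging protein Mfge8, averaged 1.68 ± 0.11 CPM with AZD1152 and 4.19 ± 1.31 CPM with vehicle (log2 fold change -1.31 ± 0.26 SE; edgeR adjusted p = 0.0224). The C1q genes are also macrophage markers of the list above. The TAM ligands Gas6 and Pros1 and the third TAM kinase Tyro3, named here for their role after the values were seen, did not pass the test. Gas6, which shares exonic positions with Tmem255b, averaged 560.0 ± 71.5 CPM with AZD1152 and 495.5 ± 39.5 CPM with vehicle. Pros1 averaged 54.7 ± 13.5 and 64.8 ± 6.06 CPM, and Tyro3 4.45 ± 1.13 and 4.74 ± 0.65 CPM. Their log2 fold changes were 0.18 ± 0.12, -0.25 ± 0.18 and -0.09 ± 0.22 (SE; edgeR adjusted p = 0.393, 0.45 and 0.841).

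Of 12 other scavenger receptors 2 fell, with a median of -0.48. Cxcl16, the chemokine that also acts as a scavenger receptor for oxidised lipoprotein and shares exonic positions with Zmynd15, had -0.58 ± 0.12, and Scarb2, a lysosomal membrane protein, -0.38 ± 0.09 (log2 fold change and SE; edgeR adjusted p = 0.0264 and 0.0403). Of 13 tested myeloid C-type lectins 3 fell, with a median of -0.99. They were Clec4e (Mincle, a receptor for mycobacterial glycolipid and for a protein of dead cells), Clec5a and Clec12a, with -1.97 ± 0.46, -0.93 ± 0.23 and -0.96 ± 0.24 (edgeR adjusted p = 0.0381, 0.0423 and 0.0433). Without vehicle replicate 1 Clec4e was at -1.04. In the list of Dectin-1 signalling 2 of 8 fell, with a median of -0.26. These were Syk, the kinase that Dectin-1 engages, at 17.7 ± 4.13 CPM with AZD1152 and 37.1 ± 13.9 CPM with vehicle, and Vav1, at 9.49 ± 2.94 and 22.2 ± 1.18 CPM (edgeR adjusted p = 0.0387 and 0.0203).

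Of 5 tested Siglec genes beside Siglec1, 0 fell and 1 rose, with a median of -0.70. Siglech, a receptor of plasmacytoid dendritic cells and microglia, had 1.27, 1.66, 1.40 and 0.849 CPM with AZD1152 and 0.524, 0.513 and 0.277 CPM with vehicle, so all AZD1152 libraries were above. Its log2 fold change was 1.55 ± 0.37 (SE; edgeR adjusted p = 0.0387), and the call was lost without any single library but AZD1152 replicate 4.

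Inside the cell, 1 of 19 genes of the engulfment machinery fell and 0 rose, with a median of 0.03 (-0.12 with total-count scaling). It was Elmo1, which with Dock1 activates Rac during engulfment and shares exonic positions with Gm32036, at 5.99 ± 1.61 CPM with AZD1152 and 11.6 ± 1.19 CPM with vehicle (edgeR adjusted p = 0.029). Among 10 regulators of receptor genes 1 fell, with a median of -0.19. It was Spi1, which encodes PU.1, at 9.12, 8.49, 15.8 and 17.8 CPM with AZD1152, against 25.6, 24.9 and 25.5 CPM with vehicle (log2 fold change -0.99 ± 0.24 SE; edgeR adjusted p = 0.0426). As with the macrophage markers, AZD1152 replicates 1 and 2 were the lowest. Of 4 genes for the shedding of Mertk and Axl 1 fell, Rhbdf2, a partner of the protease ADAM17, with -0.60 ± 0.14 (SE; edgeR adjusted p = 0.0384).

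Of 8 tested genes around the Cd163 ligand, 1 fell and 1 rose. Hp, which encodes haptoglobin, had 2.90, 3.98, 4.21 and 3.11 CPM with AZD1152 and 24.2, 5.59 and 8.76 CPM with vehicle (log2 fold change -1.85 ± 0.44 SE; edgeR adjusted p = 0.0401), and vehicle replicate 1 was high as it was for Marco. Without that library Hp was at -1.01. Blvra, which encodes biliverdin reductase A, rose by 0.37 ± 0.09 (SE; edgeR adjusted p = 0.0438), a call lost with total-count scaling and without any single library. Of 10 genes of fatty acid uptake beside Cd36, 0 fell and 1 rose, with a median of 0.18 (0.03 with total-count scaling). Fabp3, a fatty acid-binding protein gene that shares exonic positions with Gm10570 and Zcchc17, averaged 63.1 ± 5.99 CPM with AZD1152 and 44.1 ± 5.62 CPM with vehicle (edgeR adjusted p = 0.0257). Its call too was lost with total-count scaling. The same held without AZD1152 replicate 4 or vehicle replicate 2 or 3, and with the replicate number as a block.

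**Figure D5:**
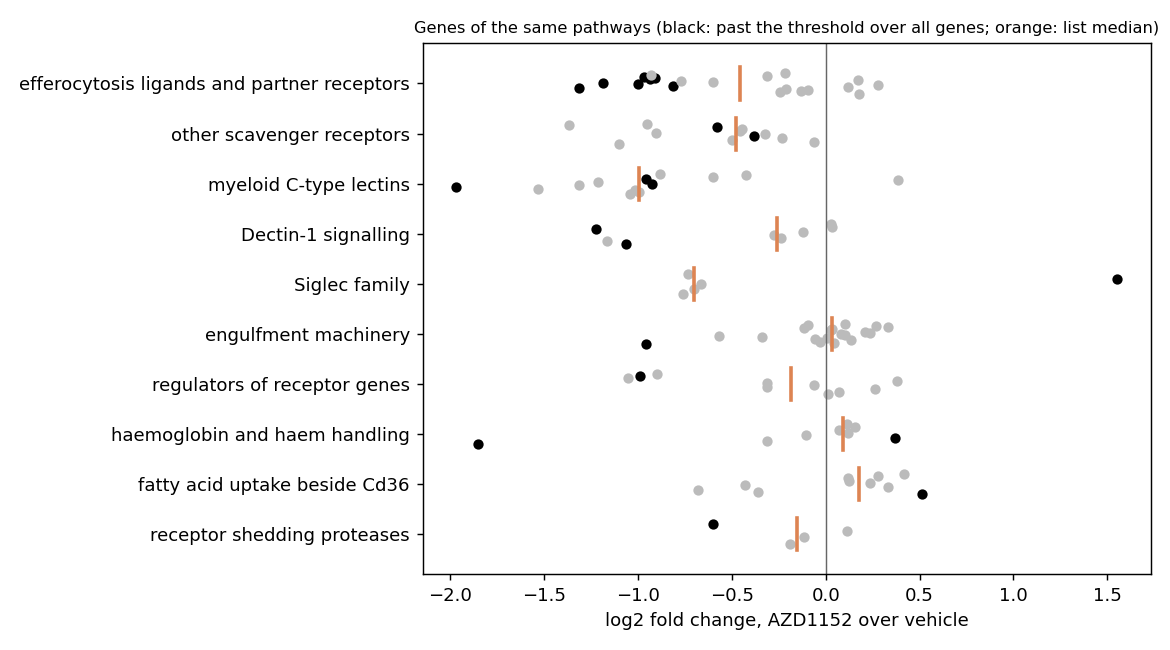
Log2 fold change of AZD1152 over vehicle (x axis) of each tested gene in the 10 pathway lists (rows); black points passed the threshold over all genes, grey points did not, and orange bars are list medians. Medians run from -0.99 for myeloid C-type lectins to 0.18 for fatty acid uptake, and Siglech at 1.55 is the rightmost point.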

How the data were processed

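Kidney RNA of 7 MRL/lpr mice was analysed from raw whole-number read counts per Ensembl gene, as the authors deposited them. The submitters' processing notes name CASAVA, HISAT2 2.0.5, the build GRCm38, DESeq2 and DESeq. Which program counted the reads, on which strand and with which annotation is not given in the sources used here, and reads of overlapping genes cannot be told apart. Groups and replicate numbers came from the sample titles. The design text counts 4 and 3 mice. Names, positions and merged exon lengths came from GENCODE mouse release 21, which named 53360 of 53465 genes.

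Counts were filtered with filterByExpr and scaled by TMM, and groups were compared by the quasi-likelihood test of edgeR 4.0.16 under R 4.3.3, two-sided, with Benjamini-Hochberg adjustment over 15774 genes and a threshold of 0.05. SE is the log2 fold change over the square root of F. CPM use the TMM-scaled library total, with a prior count of 2 on the log2 scale. The floor of 3 counts covers counting error only, since no molecular identifiers are described. The steps were tested on simulated counts. No 2 libraries agreed within sampling noise (over 21 pairs, chi-square divided by its degrees of freedom was at least 10.5).

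The members, lists and tests were chosen with earlier results of these data known. Beside the 10 receptors, each pathway list named its called genes with the smallest p, up to 3, or the 1 with the smallest p where none was called, and each tested receptor the 2 genes with the most similar log2 CPM over the libraries. Alternatives were RLE, upper-quartile and total-count scaling, no filter, a stricter filter (1 CPM in 3 libraries and a mean of 2 CPM), DESeq2 1.42.0, each library left out, and the replicate number as a block.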

Additional observations from a re-analysis of the deposited data

Results flagged for a closer look

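Of 27 genes named among the receptors and pathway lists, 1 had an AZD1152 library that stood apart from the other 3 by Dixon's test, which chance gives in about 1 of 20 groups. It was Blvra, at 87.5 CPM in AZD1152 replicate 2, against 71.4 to 73.1 CPM in the other AZD1152 libraries and 54.4 to 63.3 CPM in vehicle libraries. AZD1152 replicate 2 also had the highest share of mitochondrial transcripts, 11.6%, beside 9.41% to 9.76% in the other AZD1152 libraries and 8.03% to 9.0% in vehicle libraries; its part in the Blvra value was not tested. The vehicle group, with 3 libraries, cannot be judged in this way.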

How the results depend on the processing

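Of 5 receptors called, 5 were called with RLE, upper-quartile factors, no filter and the stricter filter, 6 with total counts and with DESeq2 (Clec7a added), and 1 to 5 without single libraries (1 without AZD1152 replicate 4 or vehicle replicate 1 or 3, 2 without AZD1152 replicate 2, 3 without AZD1152 replicate 1); Siglec1 was called in all 14 settings. The count over all genes, 1235, ranged from 223 (without vehicle replicate 3) to 1094 (without vehicle replicate 2) with a library left out, with 398 when vehicle replicate 1 was dropped, 443 when AZD1152 replicate 4 was and 750 when AZD1152 replicate 2 was, and was 2092 in DESeq2. The log2 fold change of Mertk ranged from -0.083 to 0.074 without single libraries and turned positive only without vehicle replicate 1. The labels tie the replicate numbers to no shared litter or day. Deviations of same-numbered libraries had correlations of -0.288, 0.209 and -0.119 for numbers 1 to 3, positive for number 2 only. AZD1152 replicate 3 and vehicle replicate 1, of unlike number, reached 0.299. The numbers were not taken as pairs. With the replicate block 209 genes and 1 receptor, Siglec1, were called, and AZD1152 replicate 4 adds nothing to the contrast there. With that block 6 macrophage, 1 T cell and 0 proximal tubule markers were called, in place of 10, 6 and 2. The cause of these shifts was not tested. The stricter filter left out Cd163. Low counts limit Cd163, with 33 in all AZD1152 and 54 in all vehicle libraries, and Timd4, with 10 and 37. Of the list medians, those of engulfment (0.034) and haem genes (0.092) turned negative with total counts (-0.115 and -0.057).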

Other observations

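Vehicle replicate 1, in which Marco was highest, stood apart in few other genes at the limits used here. With limits set after the Marco values were seen (at least 3 times either other vehicle library, and at least 2 CPM), 6 of 15774 tested genes qualified in vehicle replicate 1, 20 in replicate 2 and 25 in replicate 3. Of these, 14 in replicate 2 and 19 in replicate 3 were immunoglobulin genes, and 0 in replicate 1. Beside Marco, the genes of replicate 1 were Clec4e, at 21.99 CPM against 5.65 and 6.15 CPM in the other vehicle libraries, Ehd1, which encodes an endocytic recycling protein, at 14.1 against 3.37 and 2.61 CPM, F10, which encodes coagulation factor X, at 12.5 against 2.91 and 3.27 CPM, the clock-related gene Ciart at 8.14 against 2.05 and 2.0 CPM, and Gm10032 at 2.44 against 0.285 and 0.444 CPM. In AZD1152 libraries Clec4e had 2.26 to 3.32 CPM, Ehd1 2.46 to 5.02 CPM and F10 1.33 to 2.55 CPM. Ciart had 2.9 to 5.91 CPM there, all above vehicle replicates 2 and 3, and Gm10032 had 1.19 to 3.26 CPM, with replicates 1 and 4 above vehicle replicate 1. The summed macrophage markers were also highest in that library, at 1821 CPM against 1369 and 1510 CPM, while the summed neutrophil markers were not (27.9 CPM against 31.6 and 26.2 CPM). Genes just under the limit of 3 times are not counted. Examples are the lectin gene Clec4d, at 8.26 CPM in vehicle replicate 1 against 2.34 and 2.77 CPM, and Hp, at 24.2 against 5.59 and 8.76 CPM.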
